A study of Mus musculus with 9 samples.

Results

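The genes described here encode the structural proteins of the extracellular matrix and the receptors that hold cells to it: collagens, laminins, fibronectin, the basement membrane proteins agrin, perlecan and the nidogens, and the integrins. They were taken by symbol from the platform's probe-to-gene annotation, with 1 probe set per gene (the one with the highest mean), which gave 77 of the 12393 genes on the array. There were 36 collagens, 10 laminin chains, 22 integrin chains, 5 genes for fibronectin and basement membrane linkers (Fn1, Agrn, Hspg2, Nid1 and Nid2), and 4 genes that carry an integrin name without being a chain (Itgb1bp1, Itgb1bp2, Itgb3bp and Itgbl1). A filter on low signal, set on the mean over all arrays, left 55 of the 77 for testing among 8675 genes.

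The tissue was wild-type mouse mid-foregut, the gut tube between the pharyngeal arches and the liver, from which the lung buds grow; neural tube and heart had been dissected away. Embryos were grouped by their count of somites, the paired blocks of mesoderm laid down as the body lengthens, into 16-20 somites (embryonic day 8.5), 21-25 somites (day 9.0) and 26-30 somites (day 9.5). Each stage had 3 biological replicates, each a pool of 5 to 10 foreguts on 1 Affymetrix array, so the spread between replicates is that between pools with their arrays. The tissue held both epithelium and mesenchyme, and in such samples fewer cells of a type and less RNA per cell cannot be told apart.

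A basement membrane is the thin sheet on which the foregut epithelium rests. Laminins, trimers of an alpha, a beta and a gamma chain, and collagen IV, a trimer of alpha chains, each form a network in it, and nidogens and perlecan join both networks. Fibronectin and the fibrillar collagens lie in the mesenchyme around it. Integrins are dimers of an alpha and a beta chain that bind these proteins outside the cell and the actin cytoskeleton inside it, and in the embryonic lung fibronectin and laminin are known for their part in bud outgrowth and branching.

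Signals are MAS5 intensities on a linear scale, given as the mean ± SD of 3 arrays. Differences between stages are limma coefficients ± SE on log2(signal + 26.1), where the added constant makes those of dim genes too small. The level of one gene's probe set says nothing about that of another gene. The top signal of any probe set was 27479.8 to 32583.5 on 3 arrays (replicate 1 at 21-25 somites, replicates 1 and 2 at 26-30), here called narrow-range, against 43791.6 to 61749.1 on the other 6. Without these 3 arrays only replicate 3 is left at 26-30 somites. Every difference from that stage given without them therefore rests on 1 array there, with no spread of its own. On 16-20 somites replicate 2 the summed signal of 9 hepatic and visceral endoderm markers was 40363.6 and that of 10 cardiac muscle markers 18729.6, against at most 9384.9 and 7266.6 on any other array. The foregut endoderm markers Foxa2 (459.9 to 882.5) and Epcam (112.5 to 726.4) were above the filter on average, whereas Nkx2-1 (7.2 to 98.6), Shh (0.7 to 38.3) and the gut mesenchyme gene Foxf1 (12.7 to 65.0) lay below it.

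No matrix or integrin gene passed the test between any pair of stages. By limma with Benjamini-Hochberg adjustment, 0 of the 55 tested members had an adjusted p under 0.05 in the first step (21-25 against 16-20 somites, smallest adjusted p 0.359), in the second (26-30 against 21-25, 0.975) or over the whole interval (26-30 against 16-20, 0.409). The background was the same, 0.0% of the 8675 genes in each comparison and in an F test over all stages. At an unadjusted p under 0.05 there were 5 members higher and 1 lower in the first step, where 5.68% and 5.38% of all genes were. In the second step 1 was higher and 4 were lower (2.02% and 2.05% of all genes), and over the whole interval 2 were higher and 1 lower (6.29% and 4.85%). The F test gave 4 members at an unadjusted p under 0.05, or 7.27%, against 9.75% of all genes. Simulated data for 26-30 against 16-20 somites (20 sets) gave a recovery of 41% for a log2 change of 1 and 89.9% for 1.5, and smaller changes were not simulated. Each set held 200 changed genes, some with changes of 2 and 3, and noise drawn independently for each gene and array. Real arrays can shift as a whole, so the recovery in these data may be lower.

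Most tested members had their highest mean at the middle stage, and that share rested on 1 array. The mean was highest at 21-25 somites for 31 of the 55 tested members (56.4%), against 30.2% of all tested genes. The median difference was 0.14 in the first step, -0.14 in the second and -0.01 over the whole interval, beside 0.00, 0.01 and 0.01 for all genes. Replicate 1 of 21-25 somites, a narrow-range array, held the highest signal of 28 members (50.9%), where it held the highest of 21.9% of all genes. Without this array 15 members (27.3%) had their highest mean at 21-25 somites, beside 27.4% of all genes, and the median differences were 0.02 in the first step and 0.01 in the second. The first-step median also fell to 0.0054 without 16-20 somites replicate 1. Without 21-25 somites replicate 1 the share of members with a middle-stage maximum was thus at the background.

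**Figure D1:**
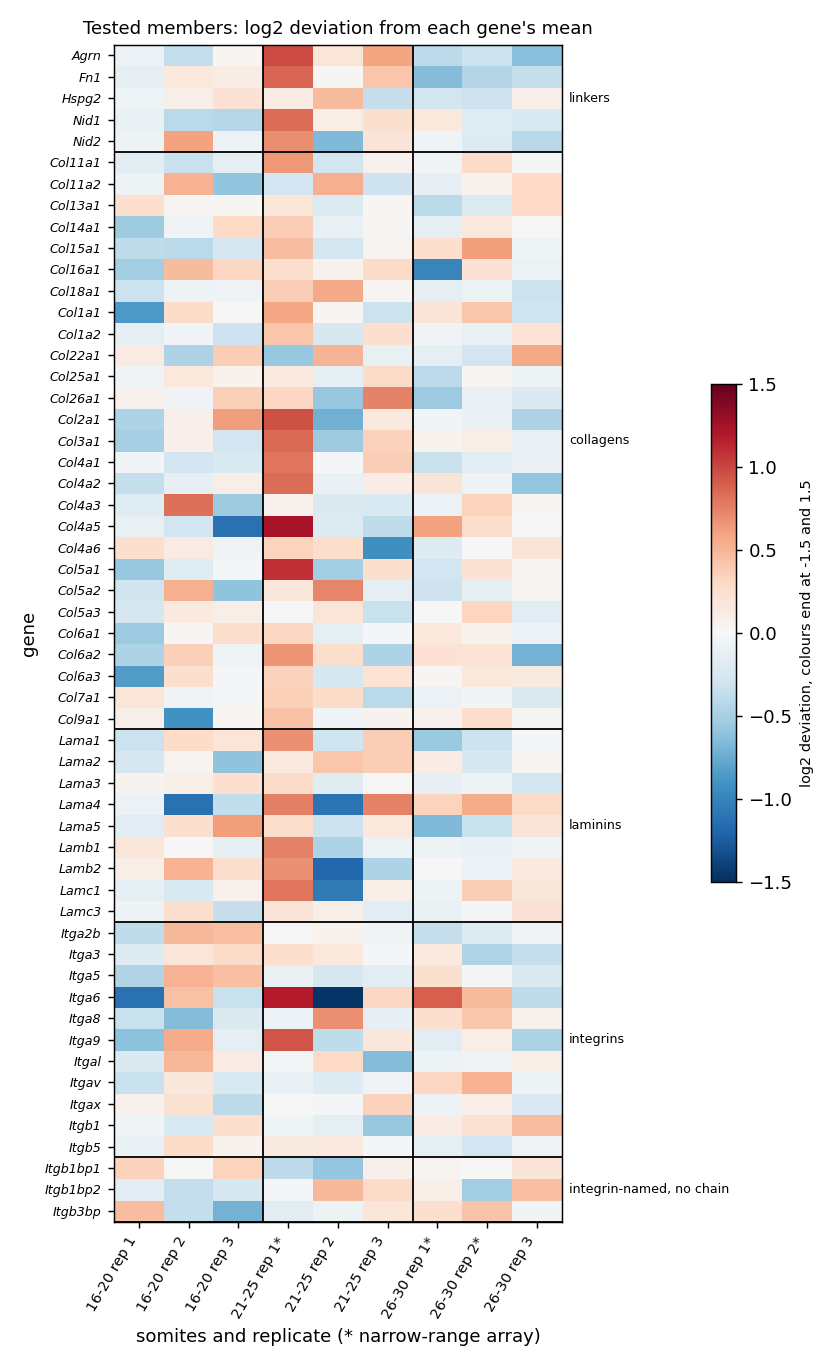
Log2 deviation of each tested member (rows, grouped by family) from its own mean over the 9 arrays (columns, by somite stage and replicate); red is above the mean and blue below, and asterisks mark the 3 narrow-range arrays. The column of 21-25 somites replicate 1 is red for most linkers, collagens and laminins, and holds the highest value of 28 of the 55 genes.

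Replicate 1 of 21-25 somites differed from the others of its stage in more than the matrix genes. The summed signal of 12 gut mesenchyme markers was 15969 on it, against 11118.8 and 11857.5 on the other arrays of the stage, 7545.9 to 10529.1 at 16-20 and 10300.3 to 13453.8 at 26-30 somites. The sum of 8 endothelial markers was 2921.4, against 1372.9 to 2242.7 on all other arrays. Among the 8, Tie1 stayed between 1.7 and 32.2 while Cdh5 ranged from 102.5 to 340.4. The sum of 7 parietal endoderm markers was 11009.4 on that replicate, against 5193.8 to 6970.9 elsewhere. These include the members Lama1, Lamb1, Col4a1 and Col4a2. The replicate was also highest for 7 neural (955.7, elsewhere at most 884.9) and 4 notochord and sclerotome markers (387.5, elsewhere at most 333.7). It was lowest for 5 primitive erythroid markers (18111.7, elsewhere at least 20600.6). Marker sums also moved with the first step over the whole stage. Bright genes weigh most in them, such as Ptch1 (4118.7 to 8571.8) for mesenchyme and Krt8 (2110.9 to 7627.1) and Krt18 (1101.4 to 5458.8) for endoderm. Gene by gene, 8 of 9 tested gut mesenchyme markers had positive first-step differences (median 0.34). Of 11 tested foregut endoderm and epithelial markers 8 had negative ones (median -0.33). All 3 arrays of 21-25 somites lay above all of 16-20 in the gut mesenchyme sum, and below all of them in the sum of 13 foregut endoderm and epithelial markers, which was 10852.6 to 17877.3 at 16-20, 9435.3 to 10470.8 at 21-25 and 10099.6 to 11090.2 at 26-30 somites. The part of these differences in the matrix genes was not tested.

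**Figure D2:**
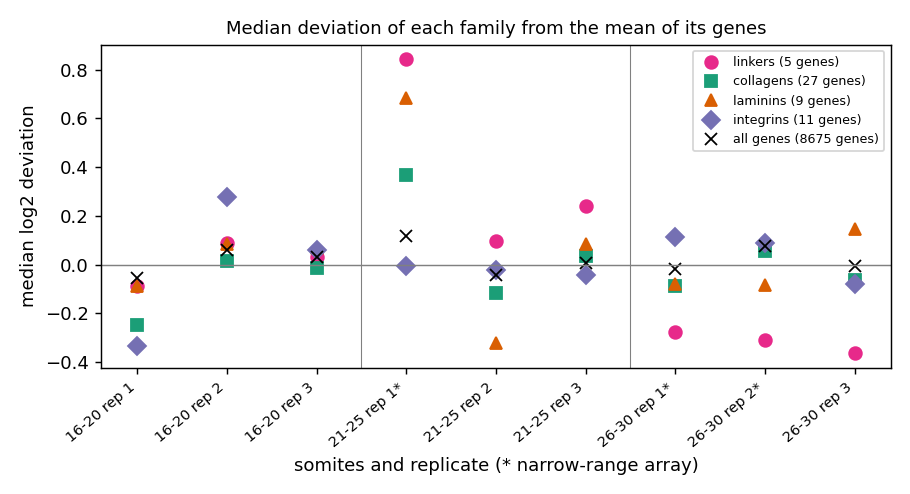
Median log2 deviation of the tested linkers (5 genes), collagens (27), laminins (9) and integrins (11) from each gene's mean, by array; crosses show all 8675 tested genes and asterisks the narrow-range arrays. On 21-25 somites replicate 1 the medians were 0.84 for linkers, 0.68 for laminins and 0.37 for collagens, but -0.01 for integrins and 0.12 for all genes; linkers were lowest on the 3 arrays of 26-30 somites, at -0.28, -0.31 and -0.36.

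Among fibronectin and the linkers, Fn1 and Agrn had lower signals on all arrays of 26-30 somites than on any array of 21-25 somites. Agrin, a heparan sulfate proteoglycan of basement membranes, had Agrn signals of 1124, 927.3 and 1222 at 16-20 somites, 2390, 1364.7 and 1816.3 at 21-25 and 905.1, 952.4 and 762.4 at 26-30. The 3 arrays of the middle stage lay above all 6 others. The means were 1091 ± 150, 1857 ± 514 and 873 ± 98.9. The log2 difference was 0.73 ± 0.24 in the first step (adjusted p 0.359) and -1.04 ± 0.24 in the second, with a 95% interval of -1.56 to -0.51 before adjustment (adjusted p 0.975). When replicate 1 of the middle stage was left out they were 0.53 and -0.84, so the middle-stage maximum of Agrn did not hang on that array. Over the alternative settings the second-step difference ran from -1.24 to -0.84, with adjusted p from 0.0337 to 1.00.

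Fn1 encodes fibronectin, the RGD-bearing glycoprotein that mesenchymal cells assemble into fibrils. Its signals were 3036.6, 3724.1 and 3609.2 at 16-20 somites, 6126.5, 3364.6 and 4444.4 at 21-25, and 2102.7, 2450.2 and 2580.8 at 26-30. The arrays of the last stage lay below all 6 earlier ones, while those of the first stages overlapped. The second-step difference was -0.92 ± 0.24 (adjusted p 0.975), a fold of 0.528, and that over the whole interval was -0.53 ± 0.24 (adjusted p 0.440). Without 21-25 somites replicate 1 the second step gave -0.70, and without all 3 narrow-range arrays -0.58. A dimmer probe set of Fn1, at a mean of 6.34 on the log2 scale where the filter lay at 6.66, gave 0.77 over the whole interval and 0.13 in the second step. The mean of the probe sets gave 0.12 and -0.40, so the direction over the whole interval turned with the probe set.

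Weights for the arrays, which count less those that lie far from their stage, changed these calls. With weights, limma gave the second step an adjusted p of 0.0337 for both Agrn (-1.0 ± 0.17) and Fn1 (-0.99 ± 0.17), where 0.334% of all genes were called. In the F test both passed at 0.0248, with 3.91% of all genes called, and over the whole interval Fn1 passed at 0.0409 (-0.64 ± 0.18), with 8.43% called. Over all alternatives the second-step difference of Fn1 ran from -1.13 to -0.40 (adjusted p 0.0337 to 1.00) and its whole-interval difference from -0.64 to 0.12 (0.0409 to 0.999). The weights favoured 26-30 somites replicate 1 (3.38) and 21-25 somites replicate 3 (2.84) over 21-25 somites replicates 1 and 2 (0.402 and 0.335).

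Nid1, a nidogen that bridges laminin and collagen IV, also had its 3 middle-stage arrays above the first stage. Its signals were 828, 660.3 and 654.4 at 16-20 somites, 1609.6, 947.6 and 1050.6 at 21-25, and 993.2, 778.3 and 751.2 at 26-30. The last stage overlapped the middle one. The first-step difference was 0.70 ± 0.25 (adjusted p 0.369) and the second -0.48 ± 0.25 (0.998). Without 21-25 somites replicate 1 these were 0.48 and -0.25, and with the mean of its 2 probe sets, the other of them dim, 0.31 and -0.25. The other nidogen gene, Nid2, showed no separation of stages, with 193.8, 327.6 and 194.3, then 350.7, 120.9 and 239.3, then 195.9, 177.2 and 148.6. Perlecan, the large heparan sulfate proteoglycan encoded by Hspg2, differed by less than the spread between arrays. Its means were 1180 ± 115, 1209 ± 345 and 996 ± 164. The first-step difference of Hspg2 was 0.00, with a 95% interval of -0.54 to 0.54, which leaves room for changes of that size.

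**Figure D3:**
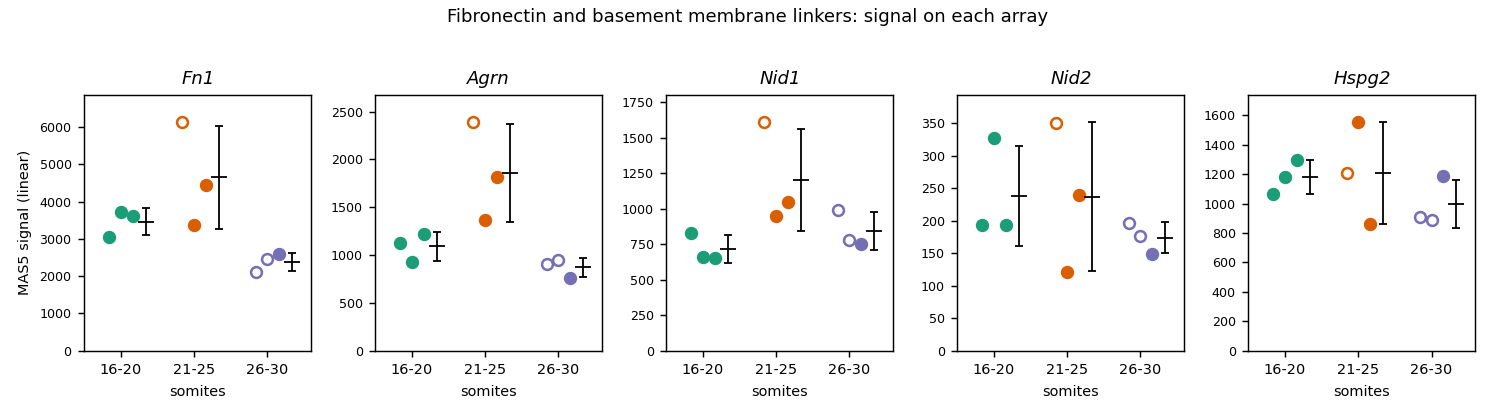
MAS5 signal (linear axis from 0) of Fn1, Agrn, Nid1, Nid2 and Hspg2 on each array, by somite stage; open circles are narrow-range arrays, and the bar beside each group is the mean with its SD (n = 3). The 3 arrays of 21-25 somites lie above all others for Agrn and above the first stage for Nid1, and the 3 of 26-30 somites lie below all others for Fn1.

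The promoter windows of the genes whose middle-stage arrays stood above the first stage in this group, Agrn and Nid1, are shown to set their sequence side by side. Each runs from 250 bases before to 50 bases after a transcript start in RefSeq (GRCm38.p6), at chr4:156197439-156197738 on the minus strand for Agrn, the outer of its 2 listed windows, and chr13:13437352-13437651 on the plus strand for Nid1. Capitals mark the GC box GGGCGG on either strand (CCGCCC on the other), a motif bound by SP family factors.
Agrn: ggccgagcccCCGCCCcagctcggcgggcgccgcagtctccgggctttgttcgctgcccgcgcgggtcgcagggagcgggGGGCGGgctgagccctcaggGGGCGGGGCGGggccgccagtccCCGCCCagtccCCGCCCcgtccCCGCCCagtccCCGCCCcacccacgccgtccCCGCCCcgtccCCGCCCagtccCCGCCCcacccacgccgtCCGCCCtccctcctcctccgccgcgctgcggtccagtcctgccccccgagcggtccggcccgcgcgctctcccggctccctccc
Nid1: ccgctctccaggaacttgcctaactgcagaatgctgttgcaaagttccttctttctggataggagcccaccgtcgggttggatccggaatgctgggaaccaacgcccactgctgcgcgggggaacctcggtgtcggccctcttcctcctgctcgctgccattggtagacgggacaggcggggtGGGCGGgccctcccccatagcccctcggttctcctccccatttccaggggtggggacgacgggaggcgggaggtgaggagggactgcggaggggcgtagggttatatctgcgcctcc
The Agrn window held 12 matches, some overlapping, at a GC content of 83.3%, and the Nid1 window 1 match at 64.7%, where the median over all windows was 52.7%. At least 1 match was present in 35.7% of 32851 promoter windows and in 34 of the 60 windows of the members (56.7%), which covered 53 of the 77 genes. CCAAT, on either strand, was in 37.4% of all windows and 28.3% of those of the members. The TATA box TATAAA was in 13.6% and 8.33%. These are matches of letters only.

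Basement membrane collagens followed the same order of stages in part. Of 8 such genes 7 were tested, with a median difference of 0.42 in the first step, 0.07 in the second and -0.01 over the whole interval. In the second step 4 of the 7 were positive. Col4a3 (-0.16, then 0.22) and Col4a6 (-0.21, then 0.11) went the other way in both steps, though a second Col4a6 probe set gave 1.03 and -0.41. Col4a1, which encodes 1 of the chains of the ubiquitous collagen IV trimer, had signals of 2086, 1749.9 and 1819.5 at 16-20 somites, 3744.5, 2124.9 and 2779.1 at 21-25, and 1697.6, 1905.2 and 2004.8 at 26-30. The middle stage lay above both others, by a narrow margin in replicate 2. The differences were 0.57 ± 0.23 (adjusted p 0.425) and -0.58 ± 0.23 (0.998). Without 21-25 somites replicate 1 they were 0.37 and -0.38, and without all 3 narrow-range arrays 0.37 and -0.27. A second Col4a1 probe set gave 0.17 and -0.26. The partner chain gene Col4a2 had 551.5, 654.9 and 766.2, then 1295.3, 662.4 and 770.7, then 818.2, 675.3 and 470.4. Its stages overlapped, and the narrow-range replicate of the middle stage was the only array above 818.2.

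Col4a1 and Col4a2 lie head to head on chromosome 8, and their windows overlap. The window of Col4a1 was chr8:11312777-11313076 on the minus strand and that of Col4a2 chr8:11312555-11312854 on the plus strand, in GRCm38.p6. They are shown because both genes start from the same short stretch, and capitals mark the 78 bases that both windows hold, read from opposite strands (chr8:11312777-11312854).
Col4a1: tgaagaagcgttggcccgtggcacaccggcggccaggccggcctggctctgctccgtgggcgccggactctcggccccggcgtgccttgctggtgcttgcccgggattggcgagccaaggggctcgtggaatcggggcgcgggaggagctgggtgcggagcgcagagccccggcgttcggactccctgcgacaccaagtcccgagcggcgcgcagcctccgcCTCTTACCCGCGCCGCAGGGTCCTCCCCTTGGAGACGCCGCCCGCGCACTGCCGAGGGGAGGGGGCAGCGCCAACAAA
Col4a2: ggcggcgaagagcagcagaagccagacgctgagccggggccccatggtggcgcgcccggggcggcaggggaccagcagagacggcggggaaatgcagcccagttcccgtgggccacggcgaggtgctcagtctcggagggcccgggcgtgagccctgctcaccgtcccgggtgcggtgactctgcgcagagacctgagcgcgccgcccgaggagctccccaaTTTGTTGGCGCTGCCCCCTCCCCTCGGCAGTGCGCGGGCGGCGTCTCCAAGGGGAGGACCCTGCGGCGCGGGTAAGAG
The GC contents were 74.0% and 73.7%, each window held 1 CCAAT match, and neither held TATAAA (0 matches). Over the 9 arrays the log2 signals of both genes had a Pearson r of 0.64 (exact permutation p 0.0824) and a Spearman rho of 0.15 (p 0.708).

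Collagen XVIII, a heparan sulfate proteoglycan and the source of endostatin, had Col18a1 signals of 2546.3, 3024.6 and 3063 at 16-20 somites, 4130.3, 4743.3 and 3269.2 at 21-25, and 2858.7, 3019.2 and 2541.2 at 26-30. The middle stage lay above both others, and here the highest array was replicate 2, not the narrow-range one. The differences were 0.48 ± 0.21 (adjusted p 0.443) and -0.51 ± 0.21 (0.998). They were 0.45 and -0.49 without 21-25 somites replicate 1. A second Col18a1 probe set above the filter had the other sign in the first step, -0.35, and -0.06 in the second. With the mean of both probe sets the first step gave 0.06.

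Col15a1 and Col4a5 differed in another way, with higher signals on all 26-30 somites arrays than on all 16-20 somites arrays. Col15a1, for a collagen close in structure to collagen XVIII, had 138.1, 134.7 and 152.4 at 16-20 somites, 267.5, 151.1 and 192.8 at 21-25, and 228.4, 302.9 and 178.1 at 26-30. The difference over the whole interval was 0.62 ± 0.26 (adjusted p 0.409). Its 2 highest values of the last stage were on narrow-range arrays, and without the 3 such arrays the difference was 0.28. Col4a5, for a collagen IV chain of specialised basement membranes, had 409.1, 360 and 190.2, then 1086.6, 381.1 and 334.4, then 690.7, 538.3 and 444.1. The whole-interval difference was 0.80 ± 0.41 (adjusted p 0.469), but a second Col4a5 probe set gave -0.16, and the mean of both 0.32. With array weights Col4a5 was called (1.15 ± 0.30, adjusted p 0.0369), and without the 3 narrow-range arrays it gave 0.51. Over all alternatives its adjusted p ran from 0.0369 to 0.999.

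**Figure D4:**
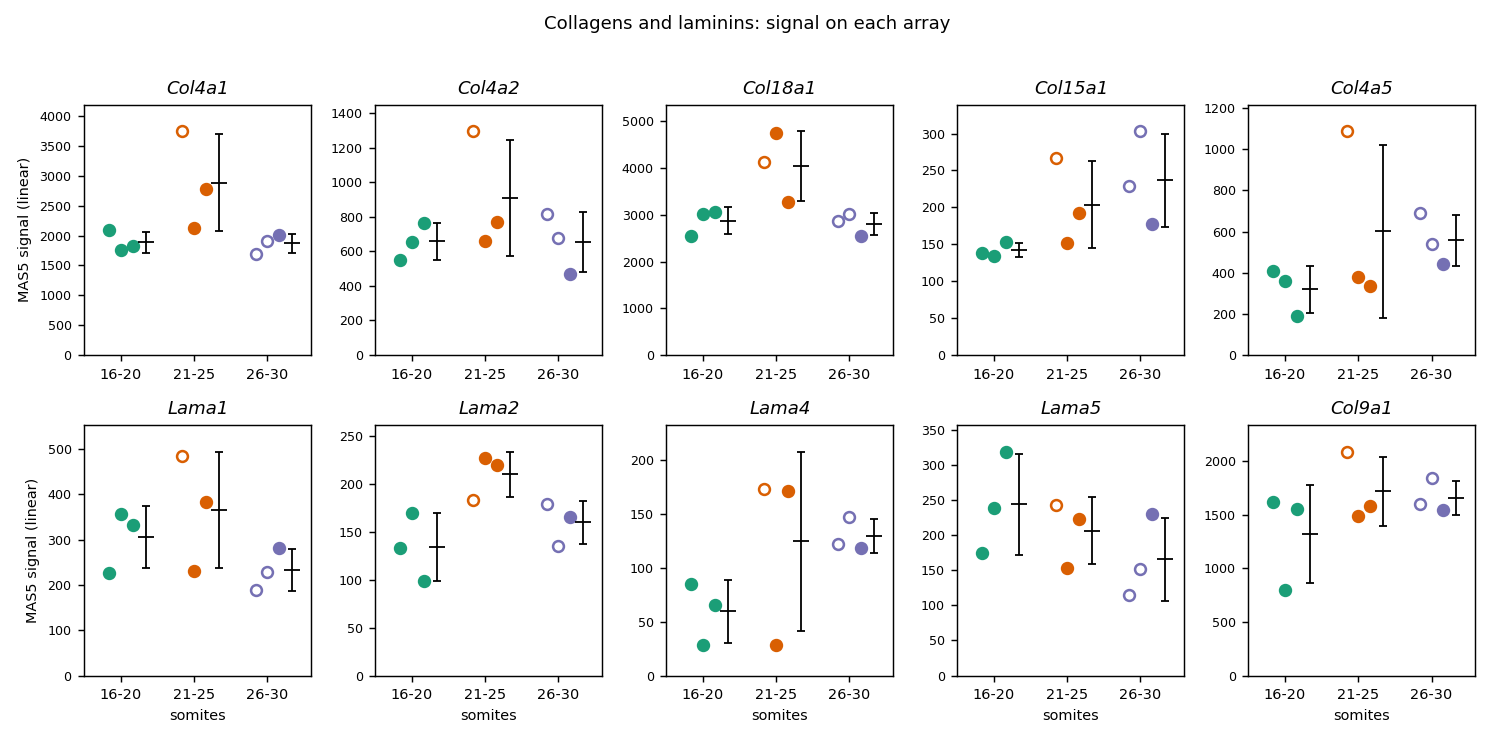
MAS5 signal (linear axis from 0) of 6 collagen and 4 laminin genes on each array, by somite stage; open circles are narrow-range arrays, and the bar beside each group is the mean with its SD (n = 3). Col4a1 and Col18a1 have all 3 arrays of 21-25 somites above the other stages, and Col15a1, Col4a5 and Lama4 have all 3 arrays of 26-30 somites above those of 16-20.

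Fibrillar collagens, the rope-like proteins of mesenchyme, had positive differences for 8 of 9 genes in the first step, with a median of 0.31, and for 3 of 9 in the second, with a median of -0.13. Their median deviation from each gene's mean was 0.58 on 21-25 somites replicate 1, but -0.24 and 0.06 on the other arrays of that stage. Over all 27 tested collagens the first-step median was 0.21, or 0.10 without that array and 0.0054 without 16-20 somites replicate 1, and the number with their highest mean at 21-25 somites went from 18 to 8 without 21-25 somites replicate 1. None (0 of 9) reached an unadjusted p under 0.05 in either step or over the whole interval by limma. The 2 genes of collagen I gave 0.31 ± 0.23 (Col1a2) and 0.29 ± 0.34 (Col1a1) in the first step. Collagen III, encoded by Col3a1, had 2182.5, 3283 and 2537.7, then 5589.9, 2133.6 and 3955.5, then 3219.4, 3338.6 and 2880.5, with its highest and its lowest array both at 21-25 somites. Col5a1, for a chain of the collagen V that nucleates fibrils, ranged from 828.2 to 2586.5 within that stage, and its highest value was again that of replicate 1. Col11a1, of the related collagen XI, had all 26-30 somites arrays above those of 16-20, with a difference of 0.28 ± 0.27. In the second step another probe set above the filter gave 0.13 for Col1a2, 0.22 for Col3a1 and 0.28 for Col5a2. The ones used gave -0.13, -0.20 and -0.39. For Col5a1 and Col11a1 the other probe set kept the sign, at -0.30 and -0.0054. Over the whole interval the other probe sets gave 0.86 (Col1a2), 0.98 (Col3a1), 0.66 (Col5a2), 0.0023 (Col5a1) and 0.96 (Col11a1). The ones used gave 0.18, 0.25, -0.01, 0.25 and 0.28.

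The 3 collagen VI genes, whose product forms beaded filaments, had first-step differences of 0.14 (Col6a1), 0.21 (Col6a2) and 0.31 (Col6a3) and whole-interval differences of 0.13, -0.03 and 0.31. Of 16 other collagens 8 were tested, with a whole-interval median of -0.18. Col9a1, for a chain of the fibril-associated collagen IX, had 1619.6, 798.5 and 1556.6, then 2084.7, 1488.7 and 1582, then 1596.3, 1838.6 and 1542.8. Its lowest array was 16-20 somites replicate 2, and its stages overlapped. The first-step difference was 0.42 ± 0.28 (adjusted p 0.608), or 0.10 without that array, the one with high hepatic and cardiac marker sums. Col26a1 was lower on all arrays of 26-30 somites than of 16-20, at -0.42 ± 0.31 (adjusted p 0.615).

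Laminin chains did not move as a set. The 9 tested chains had median differences of 0.05 in the first step, -0.14 in the second and -0.09 over the whole interval. Lamb1 and Lamc1, which encode the beta and gamma chains of most embryonic laminins, gave -0.09 ± 0.28 and 0.25 ± 0.38 over the whole interval, with 95% intervals of -0.70 to 0.51 and -0.57 to 1.08. Lamb1 had 2274.7, 1986.9 and 1818, then 3359.3, 1441.6 and 1882.5, then 1897.2, 1867.9 and 1906.3. Both its extremes were at 21-25 somites, in replicates 1 and 2. Replicate 2 had the highest beta-actin 3'/5' signal ratio, 45.3 against 20.9 to 36.8 on the other arrays, and also the lowest signal of Lamc1 (65). The part of RNA length in this was not tested.

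Alpha chains, which set where a laminin is found and what it binds, differed from each other in order. Lama1, of early epithelial basement membranes, had 226.9, 356.1 and 332.7, then 483.4, 230 and 382.9, then 188.4, 227.6 and 282.5. Its stages overlapped, with a second-step difference of -0.56 ± 0.29 (adjusted p 0.998), or -0.34 without 21-25 somites replicate 1. With all 3 narrow-range arrays left out it was -0.07. Lama5, the chain that predominates in later epithelia, had 174.3, 238.4 and 318.1, then 242.6, 152.5 and 223.1, then 115, 151.3 and 229.7. The whole-interval difference of Lama5 was -0.50 ± 0.29 (adjusted p 0.526), and its second probe set gave -0.90. Array weights called it (-0.84 ± 0.24, adjusted p 0.0472), whereas without the 3 narrow-range arrays the difference was -0.04, and over all alternatives the adjusted p ran from 0.0472 to 0.999.

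Lama2, an alpha chain of muscle and mesenchyme, had 133, 169.6 and 98.7, then 183.5, 227.1 and 219.4, then 179, 135 and 165.5. Its middle-stage arrays lay above all others, here with replicate 1 the lowest of them. The first-step difference was 0.58 ± 0.24 (adjusted p 0.425) and was 0.67 without that replicate. Lama4, of vessel walls, had 84.8, 28.2 and 65.3, then 172.7, 28.6 and 171.5, then 122.1, 147.1 and 117.9. The last stage lay above the first, at 0.92 ± 0.45 (adjusted p 0.463). Lama4 passed the filter on low signal through the later stages, as its mean of 59.4 ± 28.8 at 16-20 somites lay below it, so that its being tested is not independent of the difference. It fell below the filter, with no test, without the 3 narrow-range arrays and with the mean of its probe sets. A second, dim Lama4 probe set (mean log2 5.97) gave -0.27. Lama3, a chain of epithelial anchoring laminins, was lower on all arrays of the last stage than of the first, at -0.29 ± 0.23.

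Of 22 integrin chains 11 were tested, with median differences of 0.02, 0.08 and -0.12 in the first step, the second and the whole interval. The highest mean was at 21-25 somites for 4 of the 11 (36.4%), and for 2 without 21-25 somites replicate 1. Itgb1, the common beta chain of matrix receptors, was lower at the middle stage than at the last. Its signals were 526.2, 459.8 and 644 at 16-20 somites, 517.7, 493.1 and 357.3 at 21-25, and 589.7, 639.2 and 760.1 at 26-30. The second-step difference was 0.52 ± 0.23 (adjusted p 0.998), with no overlap of the 3 arrays of each stage, as for 4.51% of all genes in that direction. A second Itgb1 probe set of similar brightness gave -0.07, and the mean over all its probe sets 0.17. Without the 3 narrow-range arrays the difference was 0.82.

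Alpha chains that read the RGD sequence of fibronectin and related proteins went different ways. Itgav, the partner of several beta chains, had 1053.1, 1503.2 and 1132.7, then 1243.9, 1160.6 and 1291.4, then 1661.9, 1922.9 and 1260.6. The 2 high values of the last stage were on narrow-range arrays, and the whole-interval difference was 0.38 ± 0.23 (adjusted p 0.534), or 0.05 without the 3 narrow-range arrays. Itga8, a mesenchymal chain that binds nephronectin, had 93, 69.7 and 103.1, then 115.4, 215.4 and 111.9, then 152.3, 171.8 and 131.3. Both later stages lay above the first, with a whole-interval difference of 0.64 ± 0.27 (adjusted p 0.417) that stayed between 0.51 and 0.73 when each array was left out in turn. Itga5, the main fibronectin receptor chain, gave -0.17 ± 0.29.

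Nephronectin, the ligand of the integrin that Itga8 forms with Itgb1, had the clearest middle-stage maximum among the other matrix proteins examined. Npnt had 1709.5, 1640.8 and 1716.3 at 16-20 somites, 3427.7, 2972.9 and 2686 at 21-25, and 1595.1, 2186.9 and 1506.2 at 26-30. All 3 middle-stage arrays lay above the other 6. The differences were 0.83 ± 0.21 (adjusted p 0.316) and -0.78 ± 0.21 (0.998), neither past the threshold in limma.

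Among the laminin-binding alpha chains, Itga3 had 410.3, 541.9 and 584.1, then 568.3, 533.5 and 462.4, then 529.2, 341.2 and 366.2, with overlapping stages. Itga6 had the widest spread within a stage, from 199.8 to 1403.8 at 21-25 somites, so that its whole-interval difference of 0.67 had an SE of 0.59. Itga2b, the platelet chain, had 189.2, 367.8 and 357.6, then 256.5, 264.9 and 246, then 195.1, 219.3 and 245.3. The platelet marker Pf4 ranged from 167.0 to 808.2 over the arrays, while Gp9 stayed at 33.3 or less. Itgb5, a partner of the Itgav product, had 662.6, 872.1 and 744.7, then 786.6, 793.9 and 697.8, then 644.9, 581.2 and 687.8. The whole-interval difference of Itgb5 was -0.24 ± 0.20 (-0.13 without the 3 narrow-range arrays), and 2 further probe sets above the filter gave -0.66 and -0.46.

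**Figure D5:**
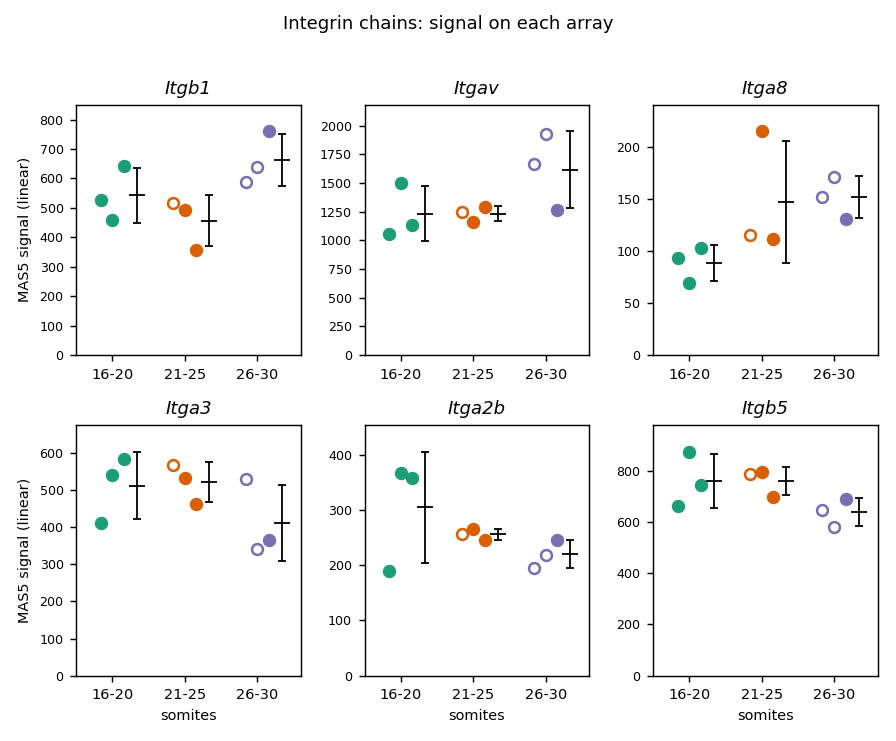
MAS5 signal (linear axis from 0) of Itgb1, Itgav, Itga8, Itga3, Itga2b and Itgb5 on each array, by somite stage; open circles are narrow-range arrays, and the bar beside each group is the mean with its SD (n = 3). Itgb1 is higher on all arrays of 26-30 than of 21-25 somites, and Itga8 is lowest on the arrays of 16-20 somites.

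The integrin-named genes that are no chain went different ways. Itgb1bp1, whose product binds the tail of the beta chain encoded by Itgb1, had 241.8, 184.4 and 240.4 at 16-20 somites, 135.3, 115 and 196.8 at 21-25, and 190.8, 184.6 and 215.4 at 26-30. The first-step difference was -0.52 ± 0.24 (adjusted p 0.451), with overlapping stages. Itgb1bp2, for the muscle protein melusin, was higher on all arrays of 21-25 than of 16-20 somites, at 0.51 ± 0.28 (adjusted p 0.519). Its mean of 73.2 ± 6.31 at 16-20 somites lay below the filter on low signal. It passed through the later stages, so that its being tested is not independent of the difference.

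Separation of stages was counted over the family. All 3 arrays of 21-25 somites lay above those of 16-20 for 7 of 55 tested members (12.7%; 6.94% of all genes) and below them for 0 (7.3%). In the second step 1 member lay above (1.82%, against 4.51% of all genes) and 7 below (12.7%, against 4.84% of all genes). Over the whole interval 5 lay above (9.09%; 11.2% of all genes) and 3 below (5.45%; 10.2%). Both steps share the middle-stage arrays, among them 21-25 somites replicate 1, which held the highest signal of 28 members (50.9%; 21.9% of all genes). An array raised for many members makes it easier for its stage to lie above another and harder to lie below. The counts are for all 9 arrays and do not show stage separation apart from that array. The counts include Itgb1bp2 in the first step and Lama4 over the whole interval, which passed the filter through the later stages. In the genes Agrn, Col4a1, Col18a1 and Lama2 the middle stage lay above both others. The share of all genes with that order was not counted, so whether it was more common among the members is not known.

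The 22 members below the filter had signals from 2.2 to 119.3. They included 9 collagens, among them the cartilage genes Col10a1, Col9a2 and Col9a3, and Col17a1 of hemidesmosomes (at most 9). The hemidesmosome integrin chain Itgb4 reached 47.7 and the laminin chain Lamb3 71. The leukocyte chains Itgam and Itgb2 reached 29.4 and 93.7. Itgb3, the platelet and osteoclast partner of the Itgav and Itga2b products, stayed at 17.5 or less. A probe set below the filter does not show that a transcript was missing.

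Chains that assemble into 1 protein were compared across arrays in 11 of 12 listed pairs, the pair with Itgb4 being below the filter. The highest Pearson r was 0.77 for Lamb1 and Lamc1 (exact permutation p 0.0346, adjusted 0.286 over the 11 pairs), with a Spearman rho of 0.25 (p 0.521, adjusted 0.912). It was -0.56 without the 2 arrays farthest from the median of Lamb1, and 0.69 within the 6 arrays that are not narrow-range (p 0.203). Leaving out the extreme arrays of 1 gene narrows its range and can itself lower r. The -0.56 alone therefore cannot show what the relation rests on. For Col4a1 and Col4a2 the adjusted p was 0.286, r was -0.65 without the 2 arrays farthest from the median of Col4a1 and 0.24 within the 6 arrays. The pairs of Itgb1 with Itga5, Itgav and Itga6 had r of 0.08, 0.14 and -0.07. The median r over the 11 pairs was 0.339, against 0.161 over all 1485 pairs of tested members and 0.025 over all pairs of tested genes, and 0 pairs had an adjusted p under 0.05. That median moved with the setting, to 0.13 both with quantile normalization and within the 6 arrays that are not narrow-range. Background medians were not computed for those settings. Several pairs share a gene, and whether the pairs exceeded the background was not tested.

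Other genes of matrix and adhesion gave 0 calls by limma in each of 5 lists, and 0 to 3 genes per list and comparison had an unadjusted p under 0.05. Of all genes, 2.02% to 6.29% had one in a given direction, by comparison. Differences were positive for 50.2% of all genes in the first step and 50.8% over the whole interval. The list counts are for all 9 arrays, 21-25 somites replicate 1 included. Of 17 tested genes that modify or crosslink collagen, 11 were positive over the whole interval, with a median of 0.18. Lox, the crosslinking lysyl oxidase, had 172.7, 165.4 and 174.4, then 213.2, 278.9 and 181, then 255.7, 314.2 and 328.8, or 0.72 ± 0.22 (adjusted p 0.346). All arrays of the last stage lay above those of the first in Lox, and the middle stage overlapped the last. Among 18 other matrix proteins the median was 0.02, and Lum, for the fibril-binding proteoglycan lumican, gave -1.21 ± 0.47 (adjusted p 0.382), with its highest signal of 993.1 on 16-20 somites replicate 2.

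Of 12 other matrix receptors 6 were positive over the whole interval. Sdc2, a syndecan that binds matrix through heparan sulfate, had 401.5, 416.7 and 437.4, then 417.9, 280.3 and 503.1, then 641.9, 732.4 and 565.2, or 0.59 ± 0.24 (adjusted p 0.395). Bcam, a receptor for the laminin chain encoded by Lama5, gave 0.87 ± 0.31 (0.363). Of 17 genes that link integrins to actin and to kinases, 14 were positive in the first step and 11 over the whole interval, with medians of 0.17 and 0.23. The kinase gene Src gave 0.67 ± 0.27 (0.398), the adaptor gene Pxn 0.59 ± 0.24 (0.400) and the talin gene Tln1 -0.77 ± 0.29 (0.375). Of 14 matrix proteases and inhibitors 10 were positive over the whole interval. Reck, a membrane-bound inhibitor, had its highest signal, 2505.2, on 21-25 somites replicate 1, against 600.2 to 1225.5 on the other arrays.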

How the data were processed

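RNA from pools of mid-foreguts was amplified in 2 rounds and hybridised to 1 Affymetrix array per pool, 9 arrays in all, per the labels' protocols. Such amplification favours the 3' ends of transcripts. Deposited intensity values came from the authors' MAS5 run, according to the submitters' processing notes. For the MAS5 version and scaling target, nothing is given in the sources used here. A 2% trimmed mean lay at 500.2 to 500.3 on every array.

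Of 22690 probe sets 20380 had 1 gene symbol in the platform annotation, 691 several and 1555 none; those with several or none were left out, as were 64 controls. For each gene the brightest probe set on average was kept. Intensities were taken to log2 after adding 26.1, the 20th percentile of all values, and genes with a mean below the 30th percentile were dropped. Stage means were fitted on all 9 arrays with limma 3.58.1 (R 4.3.3; eBayes with a trend), with two-sided tests and Benjamini-Hochberg adjustment over 8675 genes at 0.05. No arrays were identical (0 pairs). Precision is limited by having 3 arrays per stage. In simulated data with 200 changed genes the step made 9 false calls on average.

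The members, gene lists, pairs and alternatives were chosen with earlier results of these data known. Values of every array are given for the 5 linkers and for the 6 collagens, 4 laminins and 6 integrins with the smallest F test p, and up to 3 genes of each further list; a few further members (Lamb1 and Col3a1 among them) were named after their values were seen. Alternatives were quantile normalization, median centring, adding 6.53 or 104.4 in place of 26.1, a filter at the 50th percentile or none, the mean of all probe sets, array weights, a replicate block, and leaving out each array or the 3 narrow-range arrays. Same-numbered arrays did not deviate together (correlations of deviations from -0.284 to 0.257), so replicate numbers were not taken as pairs.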

Additional observations from a re-analysis of the deposited data

How the results depend on the processing

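The count of 0 called members held under quantile normalization, median centring, both other pseudocounts, both other filters, the mean of all probe sets and the replicate block. With array weights 2 members were called in the second step, 3 over the whole interval and 2 in the F test, and over all genes 29, 731 and 339; the cause was not tested. Over all genes, leaving out single arrays gave from 0 to 3 calls in the first step, 0 to 1 over the whole interval and 0 to 2 in the F test, and 0 in the second step, with 0 members among them; without the 3 narrow-range arrays 1 gene was called in the first step. The median over the tested members ran from 0.01 to 0.26 in the first step, -0.21 to 0.011 in the second and -0.07 to 0.07 over the whole interval when single arrays were left out, and the first-step value of 0.01 was that without 16-20 somites replicate 1, the second-step value of 0.011 that without 21-25 somites replicate 1. With the replicate block the medians were 0.14, -0.14 and -0.01, and it changed no call. Lama4 could not be tested without the 3 narrow-range arrays or with the mean of all probe sets, where it fell below the filter. Without a filter, over all 77 members, they were 0.05, -0.07 and -0.03. Of 63 differences of named members (21 genes in 3 comparisons), 18 changed sign under at least 1 alternative. Of 18 members with over 1 probe set above the filter, 6 had probe sets of both signs in the first step, 8 in the second and 8 over the whole interval. The number of pairs of chains with an adjusted p under 0.05 was 0 under every setting run.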
